A study of Homo sapiens with 6 samples.

Results

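Chromatin accessibility was examined at 10 genes of IGF, MET and PDGF signalling, namely IGF2, H19, IGF1R, IGFBP2, IGFBP5, MET, PDGFRA, PDGFRB, FGFR1 and EGFR. Overlapping peaks of all libraries were merged into regions, and a region was taken for a gene when the summit of its highest peak lay in the gene body or within 50 kb of it on GRCh38 (hg38). This gave 138 of 105569 regions, of which 6 were counted for both IGFBP2 and IGFBP5, neighbours on chromosome 2. ATAC-seq, in which the Tn5 transposase inserts adapters into open chromatin, was performed on RH30 cells, a line of alveolar rhabdomyosarcoma that carries a PAX-FOXO1 fusion. All cells received Cas9. The 3 vector libraries came from cells with non-targeting scramble guides, and the 3 MyoD-deleted libraries from cells with guides against MyoD. The results text of the study names a derivative with an IκBα super repressor, RH30-SR, for this experiment, whereas its methods and the sample labels name RH30. In the methods, Cas9 and guides came either from a transfected plasmid, with single-cell clones selected, or from lentiviruses. Cells that received the lentiviruses were used after antibiotic selection, with clones of them for xenografts. Which of these gave the libraries is not said. The labels call the libraries biological replicates without saying whether editing was repeated, so that p-values cover the spread between these libraries.

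IGF2 is a secreted growth factor that is abundant in rhabdomyosarcoma and acts through the receptor tyrosine kinase IGF1R, while IGFBP2 and IGFBP5 bind IGFs outside the cell. IGF2 shares an imprinted domain with the non-coding RNA H19, and both are expressed in developing muscle. MET is the receptor of hepatocyte growth factor and guides migrating muscle precursors, and PDGFRA, PDGFRB, FGFR1 and EGFR are receptor tyrosine kinases that feed the same RAS and PI3K relays. MyoD is a muscle-specific transcription factor that binds E boxes.

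Regions were compared by 2 measures. Height was the fragment pileup at the summit over the smallest background of the library, on a log2 scale in which 0 is the median region of that library. Rank was the place of a region by its fold enrichment over local background among the tested regions of the same library, given in percentiles. The median region was 0.19 log2 units higher in MyoD-deleted libraries before centring. Each measure was tested with limma over the 47885 regions called in all 6 libraries. Regions called in 3 of 3 MyoD-deleted and 0 of 3 vector libraries were counted as gained, and the reverse as lost. Read totals are unknown from peak lists. The lists hold 63140 to 74121 peaks in vector and 73745 to 80608 in MyoD-deleted libraries, and the smallest background, which follows depth, was 2.22 to 3.41 and 2.27 to 2.35 fragments. The 5′ ends of MYOD1, MYOG, DES, CDH15 and CHRNA1 were open in all 6 libraries, whereas those of PTPRC, PECAM1 and ALB were open in none, that of EPCAM in 2 vector and 3 MyoD-deleted libraries and that of the melanocyte gene MITF in all 6. The region over the 5′ end of MYOD1 was 2.75, 2.84 and 2.94 high in vector and 2.14, 2.50 and 2.43 in MyoD-deleted libraries, and fell by 0.48 (adjusted p = 0.0021), with no call by rank (adjusted p = 0.408).

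The sequences shown here lie under summits that changed and were chosen for holding either of a pair of short motifs near the summit. These are the E box CAGCTG, a site of MyoD and related factors, and the AP-1 site, TGACTCA or TGAGTCA. The windows below span 50 bases on each side of the highest summit and are given on the plus strand of GRCh38, with the motifs in capitals. The first lines come from regions that were lower in MyoD-deleted cells, each with an E box:
EGFR intron 1, 81.5 kb from the 5′ end, chr7:55100511-55100611: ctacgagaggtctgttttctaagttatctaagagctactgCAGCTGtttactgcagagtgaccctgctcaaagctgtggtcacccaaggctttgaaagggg
EGFR intron 1, 53.3 kb from the 5′ end, chr7:55072301-55072401: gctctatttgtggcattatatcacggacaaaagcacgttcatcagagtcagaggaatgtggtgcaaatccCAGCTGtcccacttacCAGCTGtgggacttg
IGF1R intron 1, 52.2 kb from the 5′ end, chr15:98700650-98700750: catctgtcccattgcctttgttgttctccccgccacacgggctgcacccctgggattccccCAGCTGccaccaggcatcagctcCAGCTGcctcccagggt
MET intron 3, 62.2 kb from the 5′ end, chr7:116734335-116734435: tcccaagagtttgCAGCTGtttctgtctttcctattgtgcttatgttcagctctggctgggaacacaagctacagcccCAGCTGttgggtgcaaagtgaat
The other lines come from regions that were higher or gained, each with an AP-1 site:
IGF1R downstream, 335.0 kb from the 5′ end, chr15:98983498-98983598: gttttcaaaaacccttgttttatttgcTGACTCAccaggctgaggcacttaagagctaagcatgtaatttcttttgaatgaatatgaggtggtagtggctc
PDGFRB downstream, 43.1 kb from the 5′ end, chr5:150112739-150112839: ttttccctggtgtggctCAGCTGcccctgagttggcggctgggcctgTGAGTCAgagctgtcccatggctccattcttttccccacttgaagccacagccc
MET downstream, 129.1 kb from the 5′ end, chr7:116801200-116801300: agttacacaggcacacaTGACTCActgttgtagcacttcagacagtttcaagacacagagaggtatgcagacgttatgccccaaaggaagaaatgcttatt
In the EGFR window at 81.5 kb the E box starts 10 bases before the summit, and in the PDGFRB window the AP-1 site starts 3 bases before it. The PDGFRB window also holds an E box, 33 bases before the summit.

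Of the 138 regions, 86 were called in all 6 libraries, 9 were gained, 1 was lost and 42 were called in some other set of libraries. By height, 13 of the 86 regions (15.1%) were higher and 16 (18.6%) lower in MyoD-deleted cells at an adjusted p under 0.05, against 11.4% and 12.8% of all regions tested. Changes ran from −1.42 to 1.36 on the log2 scale around a median of −0.030, against 0.035 over all regions. Groups did not overlap, with all MyoD-deleted libraries above, at 15 regions (17.4%, against 19.8% of all regions) and with all below at 18 (20.9%, against 18.1%). By rank, 3 regions were higher (3.49%, against 4.12% of all regions) and 6 lower (6.98%, against 4.67%). The 7 regions called by both measures had the same direction in both. These shares are close to those of the genome. Without centring, 20 member regions (23.3%) were higher and 10 (11.6%) lower, against 24.7% higher and 8.03% lower of all regions. The balance of higher and lower regions thus depends on the scaling. With ranks of −log10 p in place of fold enrichment the counts were 10 higher and 15 lower, a setting for which the shares of all regions are not given.

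Both directions met within single genes. By height, 5 of the 10 genes (IGF2, IGF1R, MET, FGFR1 and EGFR) had higher and lower regions, 3 (H19, IGFBP2 and IGFBP5) had lower regions only, PDGFRB had higher regions only, and PDGFRA had none. Directions are relative to the median region, and without centring IGFBP2 and IGFBP5 had no lower region.

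**Figure D1:**
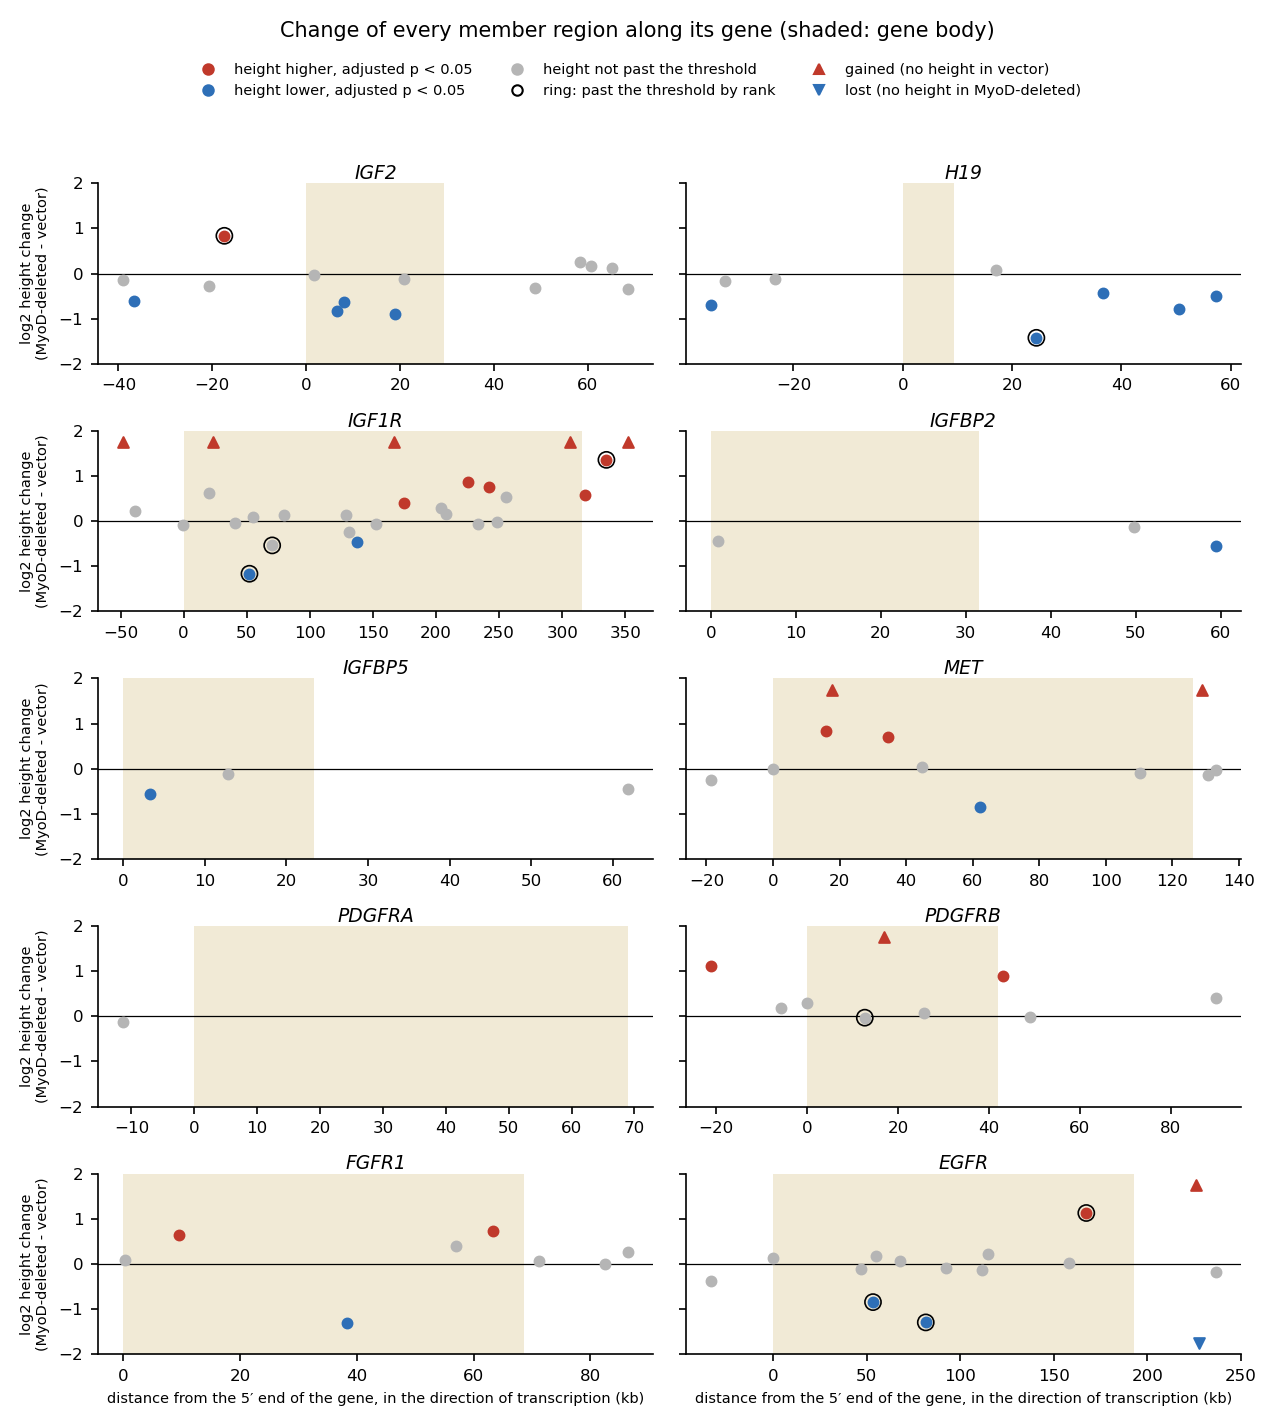
Change in centred log2 summit height, MyoD-deleted minus vector, of each region called in all 6 libraries (points) against its distance in kb from the 5′ end of the gene along the direction of transcription, with the gene body shaded, 1 panel per gene. Triangles mark the 9 gained regions and the 1 lost region, which have no change in height and are placed at a fixed level, and the called regions lie away from the 5′ ends at 0.

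The region nearest the 5′ end was not called as changed at any member gene where it was tested. Starts inside the genes are a separate matter. Within 2 kb of any annotated start of the same member gene, 16 regions were tested. By height 3 of them were higher and 3 lower, against 11.4% and 12.8% of all regions tested, and none was called by rank. Of all 23 regions so near a start, 2 were gained, against 4.56% of all regions. Within 2 kb of a transcript start near the 5′ end, 9 genes had a region, PDGFRA being the exception, and 7 of these regions were called in all 6 libraries. None of the 7 passed the threshold by height (smallest adjusted p = 0.121) or by rank (smallest adjusted p = 0.202), and their changes lay between −0.44 and 0.30. At MET, the 5′ region (chr7:116671614-116673019) was 2.49, 2.59 and 2.70 high in vector and 2.61, 2.63 and 2.55 in MyoD-deleted libraries. The groups overlapped, and the difference was −0.001 ± 0.091 (SE). At IGF1R (chr15:98647090-98649886) heights were 1.86, 2.51 and 2.39 in vector and 2.45, 1.90 and 2.14 in MyoD-deleted libraries, again with overlap, a difference of −0.088 ± 0.15. The 5′ region of IGFBP2 over coding exon 1 (chr2:216633195-216634579) had the lowest change, −0.44 ± 0.198 (adjusted p = 0.121), with overlap between −0.70 in a vector and −0.69 in a MyoD-deleted library. That of PDGFRB (chr5:150155416-150156373) had the highest, 0.30 ± 0.136 (adjusted p = 0.122). A p above the threshold does not show that these regions were alike in both groups.

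**Figure D2:**
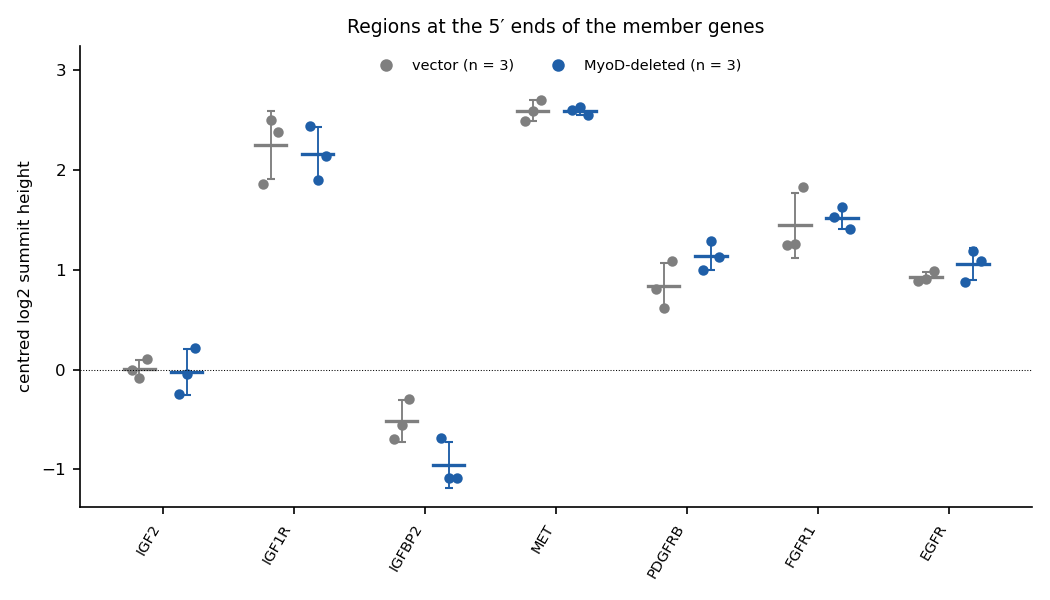
Centred log2 summit height at the 5′ region of the 7 genes where it was called in all 6 libraries, as points for each library with the mean (line) and SD (bar, n = 3). The largest differences are −0.44 at IGFBP2 and 0.30 at PDGFRB, and the MET and IGF1R regions are among the highest in both groups.

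IGF2, the ligand (chr11:2129112-2158391, minus strand), had 19 regions, 14 of them in all 6 libraries. By height 4 were lower and 1 was higher, and by rank 1 was higher and none was lower. The largest fall was in the gene body at chr11:2138585-2140533, where the summit lies 78 bases from the start of an annotated IGF2 transcript. Heights there were 0.96, 1.18 and 1.73 in vector and 0.63, 0.09 and 0.47 in MyoD-deleted libraries. All vector libraries were above all MyoD-deleted libraries, with a difference of −0.90 ± 0.178 (SE, adjusted p = 0.00118), a height of 0.537 times that in vector. Another pair of lower regions lay nearer the 5′ end of the gene. That at chr11:2151420-2152252 fell by 0.83 ± 0.197 (adjusted p = 0.0047). That at chr11:2149885-2150664 fell by 0.63 ± 0.192 (adjusted p = 0.0224), a call that was lost without centring (adjusted p = 0.107) and without vector replicate 2 or 3 or MyoD-deleted replicate 1 or 2 (adjusted p = 0.114, 0.0653, 0.112 and 0.0562). At the region nearest the 5′ end of the whole gene (chr11:2156212-2157267) the change was −0.032. Its summit lies outside the canonical transcript and 1732 bases from the nearest annotated IGF2 start.

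Upstream of IGF2, 17.4 kb from its 5′ end, the region at chr11:2175467-2176159 moved the other way. Heights were −0.21, −0.85 and −0.46 in vector and 0.23, 0.53 and 0.23 in MyoD-deleted libraries, with no overlap, a rise of 0.84 ± 0.182 (adjusted p = 0.00244). Its fold enrichment stood at percentiles 11.3, 6.0 and 7.8 in vector and 35.3, 36.3 and 32.4 in MyoD-deleted libraries (adjusted p = 0.0121 by rank, and 0.0554 without vector replicate 2). A GGAATG, the motif of TEAD factors, starts 53 bases before its summit. At chr11:2194651-2195452, still farther upstream, height was lower by 0.61 ± 0.153 (adjusted p = 0.00717), which was lost without centring (adjusted p = 0.0621) and without vector replicate 2 (adjusted p = 0.0527). Taken over the 14 regions, the median height averaged 0.089 ± 0.151 (SD, n = 3) in vector and 0.048 ± 0.124 in MyoD-deleted libraries (exact permutation test, two-sided, p = 0.6), and the difference of −0.041 turned to 0.15 without centring.

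H19 (chr11:1995166-2004552, minus strand) had no summit in its body. Its 10 regions lay on either side, 6 downstream and 4 upstream, and only 1 lay within 2 kb of its 5′ end, with a peak in 1 vector library. Of 8 regions called in all 6 libraries, 5 were lower by height and none was higher. The largest fall among all member regions was at chr11:1979250-1981064, 24.4 kb from the H19 5′ end and inside MRPL23, a gene for a mitochondrial ribosomal protein. Heights there were 1.36, 1.49 and 1.52 in vector and 0.14, −0.04 and 0.00 in MyoD-deleted libraries. The groups were far apart relative to their spread, a difference of −1.42 ± 0.125 (adjusted p = 8.42e-07), or 0.373 times the height in vector. By rank the region was also lower (adjusted p = 0.0422), but this call was lost without any 1 of the libraries (adjusted p = 0.0742, 0.098 and 0.0943 without vector replicates 1, 2 and 3, and 0.0793, 0.134 and 0.112 without MyoD-deleted replicates 1, 2 and 3). An E box CAGCTG starts 74 bases before the summit. The local background of the region was 26.95 fragments in vector and 11.67 in MyoD-deleted libraries.

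Also inside MRPL23, and within 2 kb of an annotated start of it, the region at chr11:1953485-1954438 had the highest fold enrichment near H19. Its heights were 2.21, 2.19 and 2.14 in vector and 1.39, 1.32 and 1.48 in MyoD-deleted libraries. It fell by 0.78 ± 0.099 (adjusted p = 2.21e-05), again without overlap, and was not called by rank (adjusted p = 0.128). Nor was any other H19 region but that at chr11:1979250-1981064. Smaller falls were found at chr11:1946635-1948473 (0.49 ± 0.125, adjusted p = 0.0073) and at chr11:1967140-1970109 (0.43 ± 0.106, adjusted p = 0.00608), both also inside MRPL23. The former likewise lies within 2 kb of an annotated MRPL23 start. A further fall was at chr11:2039193-2040122 upstream of H19 (0.70 ± 0.183, adjusted p = 0.00891). The first of these calls was lost without centring (adjusted p = 0.113) and without vector replicate 2 (adjusted p = 0.05), the second without centring (adjusted p = 0.172) and without MyoD-deleted replicate 1 (adjusted p = 0.0516), and the last without vector replicate 3 (adjusted p = 0.064). Taken over the 8 regions, the median height in vector libraries averaged 1.07 ± 0.198 (SD, n = 3), against 0.31 ± 0.106 in MyoD-deleted libraries (exact permutation test, two-sided, p = 0.1, the smallest that 3 libraries against 3 allow). It was lower by 0.77, and by 0.58 without centring, while the median over regions of their change was −0.46. IGF2, H19 and MYOD1 share the short arm of chromosome 11, and the 437 regions between its telomere and MYOD1 had a median change of −0.005, against −0.015 for the 490 regions from MYOD1 to the centromere and 0.035 over the genome. By height 31 of the 437 regions were higher and 69 lower, against 62 and 72 of the 490. Of all regions tested, 11.4% were higher and 12.8% lower. In the first 5 Mb of the arm, a limit chosen after the values were seen, 149 regions other than those of IGF2 and H19 were tested. Of these, 6 were higher and 22 lower, with a median change of 0.007. In both the 437 and the 149 regions, the higher share was below and the lower share above that of all regions. Whether this bears on IGF2 and H19 was not tested.

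IGF1R (chr15:98648539-98964530, plus strand) had 34 regions, the most of any member, and 22 in all 6 libraries. By height 5 were higher and 2 lower. Both lower regions lay in its 5′ part, 52.2 and 137.5 kb from the 5′ end. In intron 1 at chr15:98700235-98701122, the region with a pair of E boxes shown above, heights were −0.29, 0.03 and −0.40 in vector and −1.54, −1.58 and −1.04 in MyoD-deleted libraries. The groups did not overlap, and height fell by 1.17 ± 0.208 (adjusted p = 0.000521), to 0.446 times that in vector. Its rank also fell, from a mean percentile of 49.7 to 13.5 (adjusted p = 0.0151), a call lost without vector replicate 2 or 3 (adjusted p = 0.0598 and 0.0516) and without MyoD-deleted replicate 1 or 2 (adjusted p = 0.0525 and 0.0503). In intron 2, the region at chr15:98785367-98786693 was lower by 0.45 ± 0.128 (adjusted p = 0.0143), a call lost without centring (adjusted p = 0.165) and without MyoD-deleted replicate 2 (adjusted p = 0.0775). By rank this region was not called (adjusted p = 0.785). That at chr15:98718164-98719566 was lower by rank alone (adjusted p = 0.0361), with a change in height of −0.54 ± 0.217 (adjusted p = 0.0831). Its call was lost without vector replicate 2 or 3 (adjusted p = 0.0955 and 0.118) and without MyoD-deleted replicate 1, 2 or 3 (adjusted p = 0.0621, 0.121 and 0.0648). Each of these holds an E box CAGCTG within 100 bases of its summit.

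Higher regions of IGF1R lay in the 3′ part of the gene and beyond it. At chr15:98982981-98983985, downstream of IGF1R and inside PGPEP1L, heights were −1.13, −1.81 and −1.58 in vector and −0.10, −0.11 and −0.23 in MyoD-deleted libraries, the AP-1 window above. This was the largest rise among the member regions, 1.36 ± 0.206 (adjusted p = 0.000119) or 2.56 times, with no overlap. Its percentile by fold enrichment was 38.8, 15.3 and 24.6 in vector and 61.6, 79.5 and 60.9 in MyoD-deleted libraries (adjusted p = 0.0172 by rank, and 0.0633, 0.0553 and 0.0663 without vector replicate 2, vector replicate 3 and MyoD-deleted replicate 2). In intron 2, regions at chr15:98873409-98874419 and chr15:98889732-98891033 rose by 0.86 ± 0.183 (adjusted p = 0.00216) and 0.75 ± 0.161 (adjusted p = 0.00225), and the summit of the second is 32 bases from an annotated transcript start. By rank neither was called (adjusted p = 0.124 and 0.0823), nor was any higher region of IGF1R other than that inside PGPEP1L. The region with the highest fold enrichment, at chr15:98822815-98823737, rose by 0.41 ± 0.125 (adjusted p = 0.0225), but without vector replicate 1 or 2 or any 1 MyoD-deleted replicate its adjusted p was 0.0536, 0.0541, 0.068, 0.0737 and 0.0513. The remaining higher region, at chr15:98965614-98966657 just past the gene, rose by 0.58 ± 0.198 (adjusted p = 0.0408), and this call too was lost without vector replicate 2 or 3 (adjusted p = 0.0853 and 0.14) and without MyoD-deleted replicate 1, 2 or 3 (adjusted p = 0.0837, 0.0811 and 0.128). Over the 22 regions the median height differed by 0.11 (exact permutation test, two-sided, p = 0.4), by 0.30 without centring and by 0.014 with a window of 5 kb.

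IGFBP2 (chr2:216632828-216664436, plus strand) and IGFBP5 (chr2:216672105-216695549, minus strand) share 6 regions, of which 3 were called in all 6 libraries, and IGFBP2 had 1 more, called in 3 of the 6. In intron 1 of IGFBP5 the region at chr2:216691950-216693623 had heights of −0.05, 0.08 and 0.29 in vector and −0.19, −0.58 and −0.56 in MyoD-deleted libraries, without overlap, and was lower by 0.55 ± 0.174 (adjusted p = 0.0271). This call rested on the scaling and on single libraries. Its adjusted p was 0.132 without centring, 0.0713 and 0.129 without vector replicates 2 and 3, and 0.102 and 0.0893 without MyoD-deleted replicates 2 and 3. By rank the region was not called (adjusted p = 0.179). The region at chr2:216682143-216682837, also in intron 1 of IGFBP5, had the highest fold enrichment of both genes, and its change was −0.12 ± 0.181 (adjusted p = 0.681). At the 5′ end of IGFBP5, the region at chr2:216694199-216694706 was called in every library but MyoD-deleted replicate 1. The median of the shared regions changed by −0.26 (exact permutation test, two-sided, p = 0.1) and by −0.069 without centring, and the median of their changes was −0.44.

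MET (chr7:116672196-116798377, plus strand) had 16 regions, 9 in all 6 libraries, with 2 higher and 1 lower by height and none called by rank. The lower region was in intron 3 at chr7:116734002-116735186, with E boxes on both sides of its summit. Heights were 1.03, 0.99 and 0.87 in vector and 0.00, −0.14 and 0.48 in MyoD-deleted libraries. MyoD-deleted replicate 3 was the nearest to vector, the groups did not overlap, and height fell by 0.85 ± 0.157 (adjusted p = 0.000672), to 0.555 times that in vector. In intron 1, the region at chr7:116687670-116688344 had heights of −1.43, −1.72 and −1.40 in vector and −0.57, −0.72 and −0.77 in MyoD-deleted libraries, a rise of 0.83 ± 0.2 (adjusted p = 0.00523). In intron 2, that at chr7:116706235-116707184 rose by 0.70 ± 0.193 (adjusted p = 0.0121, and 0.061 without vector replicate 3). Between these and the fall in intron 3, the intron 2 region at chr7:116716203-116717388 had the highest fold enrichment of all member genes, at percentiles 94.3 to 98.0 in all libraries, and a change of 0.039 ± 0.111 (adjusted p = 0.848). The median height over the 9 regions differed by −0.20 (exact permutation test, two-sided, p = 0.4), by −0.010 without centring and by −0.85 with a window of 5 kb, and the median of the regions' changes was −0.037.

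PDGFRA (chr4:54229280-54298245, plus strand) had 2 regions, fewer than any other member. The region 11.3 kb upstream (chr4:54217656-54218255) was called in all libraries, with heights of −0.85, −0.76 and −1.09 in vector and −1.10, −0.87 and −1.09 in MyoD-deleted libraries. The groups overlapped, with a difference of −0.12 ± 0.196 (adjusted p = 0.715), which was 0.071 without centring. The other, in an intron, was called in 1 library of each group.

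PDGFRB (chr5:150113839-150155872, minus strand) had 13 regions, 8 in all 6 libraries, 2 higher by height and none lower. Upstream, inside CDX1, the region at chr5:150176496-150177581 had heights of −0.53, 0.40 and 0.04 in vector and 0.96, 0.98 and 1.33 in MyoD-deleted libraries. It rose by 1.12 ± 0.19 (adjusted p = 0.000336), or 2.17 times, although vector libraries spread widely. Just past the 3′ end of PDGFRB, at a start of its neighbour CSF1R, the region at chr5:150112336-150113442 with the AP-1 site shown above had heights of 0.33, −0.08 and 0.13 in vector and 0.97, 1.09 and 0.99 in MyoD-deleted libraries, a rise of 0.89 ± 0.139 (adjusted p = 0.000151). Neither region overlapped between groups, and neither was called by rank (adjusted p = 0.137 inside CDX1 and 0.114 at CSF1R).

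Intron 1 of PDGFRB held a gained region at chr5:150138525-150139227, whose height in MyoD-deleted libraries, 0.37, 0.60 and 0.67, was above that of every other gained member region and above the median region of the library. No vector library had a peak there. The next region of the intron, 3.66 kb away at chr5:150142891-150143910, was lower by rank alone. Its fold enrichment was 9.61, 9.44 and 9.49 in vector and 5.87, 7.57 and 6.50 in MyoD-deleted libraries, a fall from a mean percentile of 57.4 to 22.2 (adjusted p = 0.0109), without overlap. Its height, in contrast, was 0.77, 0.78 and 0.90 in vector and 0.60, 1.09 and 0.65 in MyoD-deleted libraries, a change of −0.031 ± 0.142 (adjusted p = 0.908), while the local background that divides it was 11.6 fragments in vector and 15.8 in MyoD-deleted libraries. By rank of −log10 p the region did not pass (adjusted p = 0.106). Taken over the 8 regions, the median height averaged 0.39 ± 0.028 (SD, n = 3) in vector and 0.94 ± 0.109 in MyoD-deleted libraries, a difference of 0.55 (exact permutation test, two-sided, p = 0.1), and the median of the regions' changes was 0.25.

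FGFR1 (chr8:38400215-38468834, minus strand) had 12 regions, 8 in all 6 libraries. In intron 2, at chr8:38429783-38431364, 308 bases from the start of an annotated FGFR1 transcript, heights were 1.58, 1.99 and 2.08 in vector and 0.48, 0.22 and 0.99 in MyoD-deleted libraries. No library overlapped, and height fell by 1.32 ± 0.169 (adjusted p = 2.46e-05), to 0.401 times that in vector. By rank the region was not called (adjusted p = 0.439), with local backgrounds of 21.8 fragments in vector and 7.85 in MyoD-deleted libraries. A pair of regions with AP-1 sites rose instead. That in intron 1 at chr8:38458838-38459787 rose by 0.63 ± 0.191 (adjusted p = 0.0211) and that in the 3′ part of the gene, where it overlaps LETM2, at chr8:38405046-38405833 by 0.72 ± 0.194 (adjusted p = 0.0107). The first call was lost without vector replicate 2 or MyoD-deleted replicate 1 or 2 (adjusted p = 0.0757, 0.0592 and 0.122), and the second without MyoD-deleted replicate 2 (adjusted p = 0.0823). By rank neither was called (adjusted p = 0.235 and 0.194). The summary over the gene depended on how it was taken, since the median height was lower by 0.36 (exact permutation test, two-sided, p = 0.1) while the median of the regions' changes was 0.17. Without centring the median height was lower by 0.17, and with a window of 5 kb it was higher by 0.24.

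EGFR (chr7:55019017-55211628, plus strand) had 25 regions, 13 in all 6 libraries, and held regions called by both measures in opposite directions. In intron 1, at chr7:55100041-55101083, heights were 0.49, 0.60 and 0.45 in vector and −1.05, −0.92 and −0.39 in MyoD-deleted libraries. The groups did not overlap, and height fell by 1.298 ± 0.183 (adjusted p = 5.99e-05), to 0.407 times that in vector. Its fold enrichment stood at percentiles 72.9, 68.6 and 63.6 in vector and 20.2, 16.4 and 39.5 in MyoD-deleted libraries (adjusted p = 0.0108), and both calls held under every alternative tried for it. Nearer the 5′ end in the same intron, the region at chr7:55071889-55072609, with 3 E boxes within 100 bases of its summit, fell by 0.85 ± 0.187 (adjusted p = 0.0027). Its call by rank (adjusted p = 0.0191) was lost without vector replicate 2 or 3 (adjusted p = 0.06 and 0.0571) and without MyoD-deleted replicate 1 or 2 (adjusted p = 0.0604 and 0.0725).

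In intron 20 of EGFR, at chr7:55185873-55186838, heights were −0.70, −1.35 and −1.19 in vector and 0.03, 0.43 and −0.31 in MyoD-deleted libraries. This region rose by 1.13 ± 0.219 (adjusted p = 0.00101), or 2.18 times. Percentiles by fold enrichment went from 35.8, 29.3 and 38.0 to 70.7, 76.8 and 66.0 (adjusted p = 0.00869), with no overlap by either measure, and an AP-1 site starts 68 bases from the summit. The region with the highest fold enrichment, 33.3 kb upstream (chr7:54985151-54986288), did not pass by height (−0.37 ± 0.135, adjusted p = 0.0536) or by rank (adjusted p = 0.0679). The median height over the 13 regions differed by −0.33 (exact permutation test, two-sided, p = 0.1), but by −0.13 without centring and 0.061 with a window of 5 kb, and the median of the regions' changes was −0.087.

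**Figure D3:**
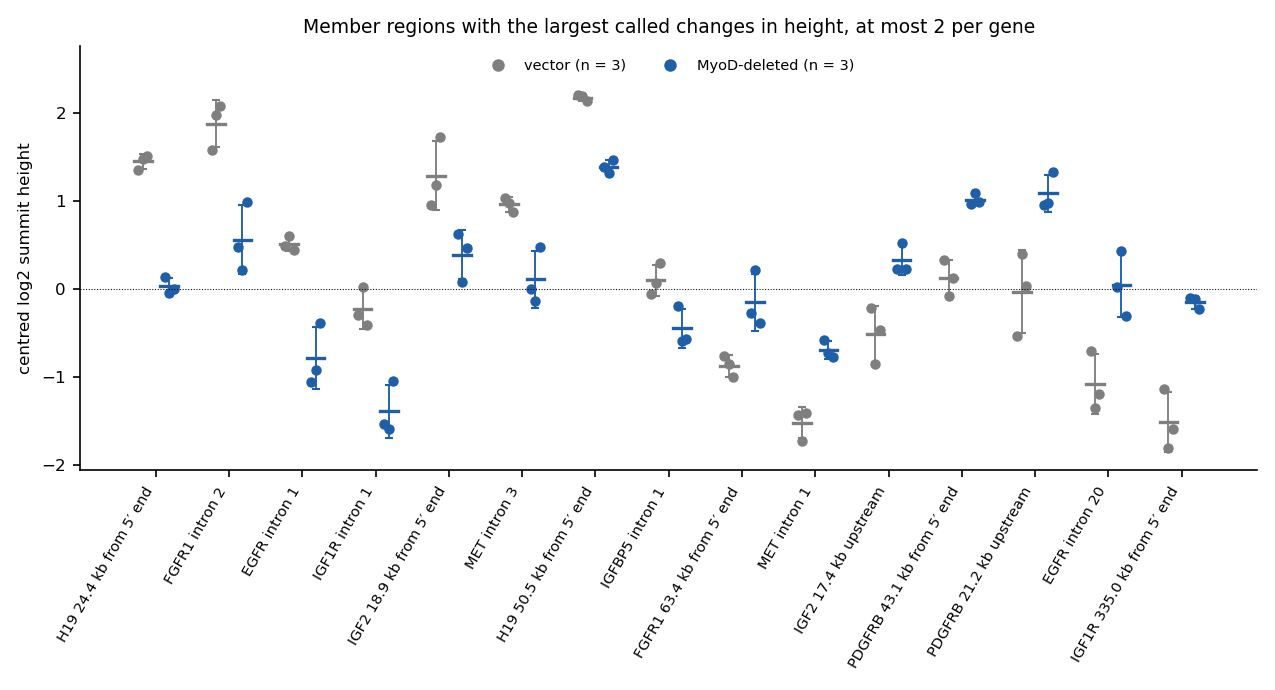
Centred log2 summit height in each library (points) with the mean (line) and SD (bar, n = 3) at the regions with the largest called changes, at most 2 per gene, ordered from the largest fall to the largest rise. Vector libraries lie above all MyoD-deleted libraries at the regions on the left, such as H19 (−1.42) and EGFR intron 1 (−1.298), and below them on the right, such as EGFR intron 20 (1.13) and the region past IGF1R (1.36).

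Gained regions made up 9 of 138 (6.52%, against 4.56% of all regions) and the lost region 1 of 138 (0.725%, against 1.78%). IGF1R had 5 gained regions, MET 2, and PDGFRB and EGFR 1 each. The IGF1R region with the highest fold enrichment among them, in intron 2 at chr15:98815222-98815901, had values of 7.34, 8.24 and 11.5 in the MyoD-deleted libraries. Its pileups there were 23, 26 and 39 fragments. Others lay in intron 1 (chr15:98671293-98671934), in intron 20 (chr15:98953968-98954868), downstream of the gene (chr15:99000401-99001274) and upstream of it. All of these had a fold enrichment of at most 7.33 and low pileups, of 10 to 23 fragments. At MET, a gained region in intron 1 (chr7:116689682-116690411) and another downstream (chr7:116800768-116801430) each had an AP-1 site within 100 bases of the summit, with pileups of 25 to 34 fragments in the MyoD-deleted libraries. Downstream of EGFR, a gained region (chr7:55245122-55245568) and the lost region (chr7:55246292-55246739) lay 0.72 kb apart. The former had pileups of 16, 17 and 12 fragments in MyoD-deleted and the latter of 23, 12 and 25 in vector libraries. With equal numbers of peaks in every library, 3 of 122 member regions were gained and 3 lost, and with a −log10 q of at least 5, 5 and 0 of 125. The count of gained regions thus differed with the peaks that were kept. Shares over all regions are not given for these settings.

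Motifs were counted within 100 bases of each summit, on both strands. Among member regions that were lower by height, 7 of 16 (43.8%) had an E box CAGCTG and none had an AP-1 site, TGACTCA or TGAGTCA. Among higher regions, 1 of 13 (7.7%) had the E box and 6 (46.2%) an AP-1 site. Over all 105569 merged regions, 25.1% had the E box and 17.9% an AP-1 site. Lower and higher regions come only from those called in all 6 libraries, where 27.8% and 17.6% had them. These shares were 57.1% and 14.5% in all lower and 15.9% and 33.0% in all higher regions. For this pair of motifs the member regions lay on the same sides of the genome-wide shares as the lower and higher regions at large, which include them. The E box CACCTG was found in 5 lower (31.2%) and 1 higher (7.7%) member region. It was in 15.9% of all regions, 15.3% of those called in all 6 libraries, 29.9% of all lower and 7.1% of all higher regions. GGAATG was in 3 lower (18.8%) and 1 higher (7.7%) member region, and in 16.6% of all lower and 24.3% of all higher regions. Around the 17.3% of all regions with it, members lay on the opposite sides. Around the 16.1% of regions called in all 6 libraries, this held for higher regions only. The core of the CTCF motif, GGNGGCAG, was in 4 of 16 lower and 3 of 13 higher member regions. It was in 11577 of all 105569 regions, 12.7% of those called in all 6 libraries, 11.1% of all lower and 9.5% of all higher regions. No IGF2 or H19 region had an AP-1 site, whereas 8 of 34 IGF1R and 6 of 16 MET regions did. A match says that these letters are in the window, not that a factor was bound.

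Other genes of the pathway were read from a list of 69, in 5 groups, with 832 regions taken by the same rule, of which 11 are also member regions. By height 42 of 414 regions (10.1%) were higher and 49 (11.8%) lower, against 11.4% and 12.8% of all regions. By rank 13 were higher (3.14%) and 13 lower (3.14%), against 4.12% and 4.67%. Gained regions numbered 41 (4.93%) and lost regions 14 (1.68%), against 4.56% and 1.78%. These shares are close to those of the genome. At least 1 higher region was found for 25 genes, at least 1 lower region for 26, and both for 9. Further IGF axis genes, such as IGF2R and the remaining binding proteins, had 12 higher (18.8%) and 6 lower (9.38%) of 64 regions. They had 17 gained of 154, against 4.56% of all regions, and 7 of the 17 were at IGFBP7. Other receptors had 6 higher (6.67%) and 14 lower (15.6%) of 90, and relays between receptor and nucleus 10 higher (7.63%) and 15 lower (11.5%) of 131. Ligands had 9 each (14.5%) of 62 and inhibitors 5 each (7.46%) of 67. No difference between these groups was tested.

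**Figure D4:**
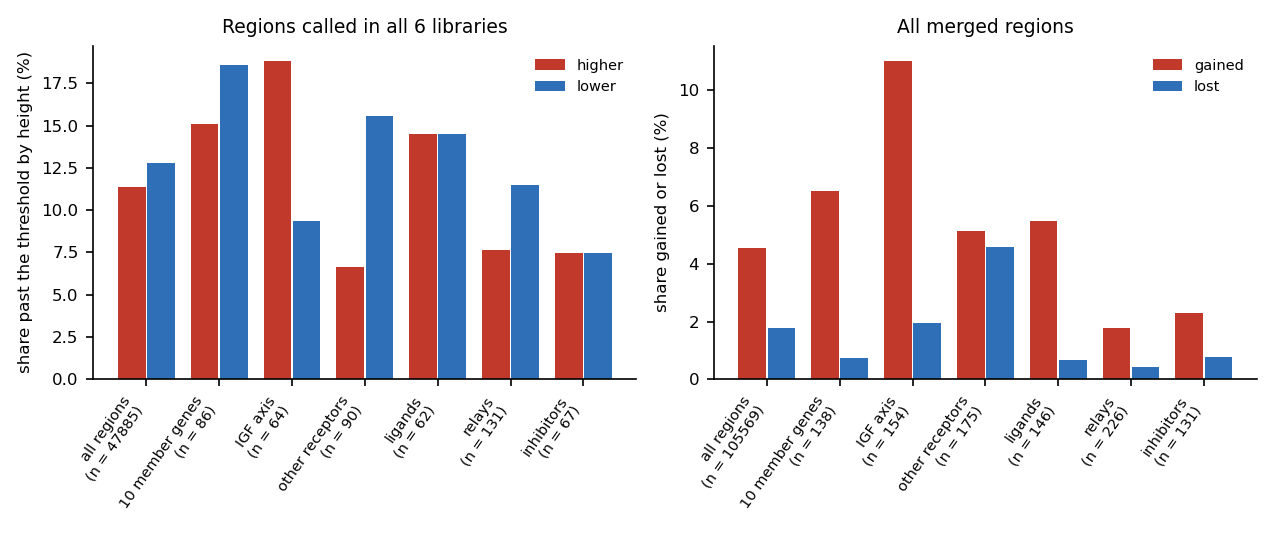
Share in percent of regions past the threshold by height among those called in all 6 libraries (left) and share of merged regions gained or lost (right), for all regions, the regions of the 10 member genes and 5 groups of other pathway genes, with the number of regions under each. Member genes had 15.1% higher and 18.6% lower regions, against 11.4% and 12.8% of all regions.

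Regions past both measures were found for 15 of the 69 genes, and the 6 with the largest change are given. IGFBP7, an IGF-binding protein, had the largest rise, in intron 1 at chr4:57080900-57081965, with heights of −1.95, −2.48 and −1.87 in vector and 0.39, 0.53 and 0.25 in MyoD-deleted libraries, 2.49 ± 0.208 (adjusted p = 6.03e-07). No library overlapped, and no member region changed as much. The intron 3 region of the receptor ALK (chr2:29657319-29658416) was 0.83, 1.33 and 1.07 high in vector and −1.54, −1.34 and −0.80 in MyoD-deleted libraries, a fall of 2.31 ± 0.196 (adjusted p = 6.96e-07). HBEGF, a ligand of EGFR, had a region in intron 3 (chr5:140339458-140340467) at 0.82, 0.46 and 0.67 in vector and −1.21, −1.65 and −1.28 in MyoD-deleted libraries, a fall of 2.03 ± 0.183 (adjusted p = 9.98e-07). TGFA, another ligand of EGFR, rose by 1.74 ± 0.191 (adjusted p = 5.63e-06) in intron 1 (chr2:70524008-70525255). In intron 2 of IGF2BP2, whose product binds IGF2 mRNA, the region at chr3:185715019-185715747 rose by 1.71 ± 0.207 (adjusted p = 1.46e-05). Upstream of SPRY2, an inhibitor of receptor signalling, height fell by 1.31 ± 0.166 (adjusted p = 2.23e-05) at chr13:80382175-80383113.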

How the data were processed

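Open chromatin was profiled by ATAC-seq in 3 vector and 3 MyoD-deleted libraries. The authors aligned paired reads to hg38 with Rsubread, kept proper pairs, called peaks per library with MACS2 and deposited 1 peak list per library. Whether their exclusion list was applied to these lists is not stated. The deposited score is a scaled −log10 q, the deposited fold enrichment is a ratio to the local background, and the deposited −log10 values (of p and of q) refer to the summit, all within a library. The authors compared read counts, which were not used here.

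The lists hold no read totals, so counting error is unknown. 1 mitochondrial peak per library was left out. Pileup and background were recovered from fold enrichment and −log10 p for 100% of 436736 peaks. Overlapping or adjacent peaks were merged (bedtools 2.31.1 gave the same 105569 regions). Rank (inverse-normal within a library) and height were tested with limma 3.58.1 (lmFit, eBayes with a trend), without a block, with Benjamini-Hochberg adjustment over 47885 regions. Median heights per gene were compared with the exact two-sided permutation test over 20 assignments. Genes were taken from GENCODE 44 and sequences from GRCh38, and no region passed a chromosome end. Names of introns follow the canonical transcript.

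The members, lists and tests were chosen with earlier results of these data known. Named are the region nearest each 5′ end within 2 kb of a transcript start, called regions (at most 4 per gene by size of change), gained and lost regions (at most 4 per gene by fold enrichment), the region with the highest fold enrichment per gene, and 6 pathway regions past both measures. Regions named beyond this complete a count and were chosen after their values were seen. Sequences were printed for named called, gained or lost regions outside chromosome 8 with either motif within 50 bases of the summit. The steps were tested on simulated data. Alternatives were a replicate block, each library left out, equal numbers of peaks, a minimum −log10 q of 5, regions in at least 2 libraries per group, windows of 5 and 100 kb, ranks of −log10 p, height without centring, a change over 25%, and peaks covering at least 50% of a region. R 4.3.3 and Python 3.11.15 were used, the latter with scipy 1.17.1, matplotlib 3.10.9, pandas 2.3.3 and numpy 2.4.6.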

Additional observations from a re-analysis of the deposited data

How the results depend on the processing

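By height, the 13 higher and 16 lower member regions became 20 and 10 without centring, and 10 lower within 5 kb of the genes, where fewer regions are tested. By rank, the 3 higher and 6 lower became 10 and 15 with ranks of −log10 p, and 1 higher within 5 kb. With each library left out in turn, counts by height were 10 to 14 higher and 12 to 19 lower, and by rank 1 to 4 higher and 2 to 5 lower. The 9 gained regions became 5 at a −log10 q of at least 5 and 3 with equal numbers of peaks, and 9 to 12 with each library left out. The 1 lost region became 0 at a −log10 q of at least 5 and within 5 kb, 3 with equal numbers of peaks, 5 with peaks covering at least 50% of a region, and 1 to 2 with each library left out, which makes the criterion easier to meet. The other causes were not tested. Other alternatives left these counts within 1.5 times.

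Libraries with the same replicate number did not deviate together (correlations of −0.041, −0.098 and 0.041), so the values gave no sign of pairing. Weak correlations cannot show that such libraries were prepared apart, and the labels do not say. With a replicate block, 12 member regions were higher and 16 lower by height, and 3 higher and 4 lower by rank. The block ended the calls by rank of the region 24.4 kb from the H19 5′ end (adjusted p = 0.0806) and of the IGF1R intron 2 region (adjusted p = 0.0629), and the call by height of the region just past IGF1R (adjusted p = 0.0672). Of 29 regions called by height, 17 were called under every alternative tried for them, and of 9 called by rank, 2 were. No named region changed direction with a call. Peak lists leave out regions below the caller's threshold, so the vector height of a gained region is unknown.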
